A study of Mus musculus with 36 samples.

Results

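The genes described here are Igf2bp1, Igf2bp2, Igf2bp3, Hmga1, Hmga2 and Lin28b, 6 oncofetal genes taken by symbol from the 46078 genes of a count table of transformed mouse astrocytes. BRB-seq, which tags the RNA of each sample with a barcode and counts the 3' ends of polyadenylated transcripts in 1 pool, had been used to measure expression. There were 36 libraries of 10 lines. Each of lots 6, 7, 8, 11 and 12, which stand for separate litters, gave 1 female and 1 male Nf1-/- DNp53 transformed astrocyte line. All lines shared the loss of Nf1, the dominant-negative p53 and growth in medium with serum, and no untransformed or wild-type astrocytes were analysed here. Each line was sequenced as 3 libraries in lots 6 and 12 and as 4 in lots 7, 8 and 11. Because each sex of a lot is 1 line, sex, litter and line cannot be told apart within a lot, and the labels leave unsaid whether replicate libraries had separate cultures behind them. The genes were selected on their CPM values in these same lines, so levels and differences between lines are given as a description, with no p-value.

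Oncofetal genes are active in the embryo, mostly silent in adult tissue and active again in many tumours. IGF2BP1, IGF2BP2 and IGF2BP3 are cytoplasmic proteins that bind mRNA, Igf2 and Myc among their known targets, and lengthen its life or steer its translation. HMGA1 and HMGA2 are small chromatin proteins that bind AT-rich DNA and bend it, and HMGA2 is known for its part in the self-renewal of fetal neural stem cells. LIN28B blocks the maturation of let-7 microRNAs, and let-7 in turn represses the mRNAs of LIN28B, HMGA2 and the IGF2BP family.

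The let-7 seed and its matches are shown because they are a sequence feature that the 6 genes share. Several of the genes are known let-7 targets, so the matches are given as a description and not as an independent result. Of 11 mouse let-7 family mature names in RefSeq (GRCm38.p6), 10 carried the same seed at bases 2 to 8 and let-7j differed in it. Examples follow 5′ to 3′, with the seed in capitals.
let-7a-5p, chr13:48538239-48538260, minus strand: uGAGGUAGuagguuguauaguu
let-7b-5p, chr15:85707325-85707346, plus strand: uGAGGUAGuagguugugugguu
let-7g-5p, chr9:106178846-106178867, plus strand: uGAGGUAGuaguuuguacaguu
let-7i-5p, chr10:122985698-122985719, minus strand: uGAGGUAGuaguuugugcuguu
miR-98-5p, chrX:151913229-151913250, plus strand: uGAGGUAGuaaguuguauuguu
let-7j, chr3:140028281-140028304, plus strand: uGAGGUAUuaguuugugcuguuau

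The match to this seed, CTACCTC in DNA letters, was searched on the transcript strand of the longest annotated 3' UTR of each gene (GENCODE release M21, GRCm38). It was present in 1896 of 21022 genes, or 9%, and in all 6 genes described here. Igf2bp1, Hmga2 and Lin28b each held 4 matches, and Igf2bp2, Igf2bp3 and Hmga1 held 1 each. Among other 3' UTRs within 10% of the same length, as many matches were found in 0 of 242 for Igf2bp1, in 1 of 1113 for Hmga2 and in 2 of 606 for Lin28b. A single match is less unusual, found at least once in 11.3% of UTRs of the length of Igf2bp2, 14.3% for Igf2bp3 and 8.4% for Hmga1. The matches are printed with the flanking bases 5′ to 3′ on the transcript strand, the match in capitals.
Igf2bp1 site 1, chr11:95961776-95961800, minus strand: gctgtgcgaagtaaaCTACCTCaag
Igf2bp1 site 2, chr11:95959355-95959379, minus strand: cagcagtgctattaaCTACCTCagc
Igf2bp1 site 3, chr11:95958761-95958785, minus strand: gtataaatggatgaaCTACCTCagt
Igf2bp1 site 4, chr11:95958138-95958162, minus strand: acttttggttttaatCTACCTCtta
Igf2bp2 site 1, chr16:22059471-22059495, minus strand: acacacaaataaaagCTACCTCagg
Igf2bp3 site 1, chr6:49086785-49086809, minus strand: tgcatttttactcaaCTACCTCagg
Hmga1 site 1, chr17:27563277-27563301, plus strand: tcctctgttcacaaaCTACCTCtgg
Hmga2 site 1, chr10:120364222-120364246, minus strand: gccgacattcaatttCTACCTCagc
Hmga2 site 2, chr10:120362985-120363009, minus strand: ccccactcctcaataCTACCTCtga
Hmga2 site 3, chr10:120362547-120362571, minus strand: ctgatttgcaaggaaCTACCTCcac
Hmga2 site 4, chr10:120361689-120361713, minus strand: aatcaaaacacactaCTACCTCtta
Lin28b site 1, chr10:45381020-45381044, minus strand: acccgggcgggaagtCTACCTCatg
Lin28b site 2, chr10:45378646-45378670, minus strand: tatacttgttagtaaCTACCTCtga
Lin28b site 3, chr10:45378474-45378498, minus strand: gtttacagcacatggCTACCTCcca
Lin28b site 4, chr10:45377058-45377082, minus strand: aaatgatggcaccgaCTACCTCttc
A match is a letter string and not a measured site, and mature let-7 is not polyadenylated and was not measured.

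Library totals ranged from 4358098 to 7562901 counts, at which 3 counts in a library, taken as the detection floor, equal 0.397 to 0.688 CPM. CPM are counts scaled to a common library total. Levels below are over library sizes scaled by edgeR's TMM method, with the SD over the libraries of a line. Of 12 astrocyte markers, 6 averaged over 1 CPM, led by Vim at 3788 CPM and Gja1, a gap junction protein, at 145 CPM. Gfap and Aqp4, which define mature astrocytes, averaged 0.148 and 0.249 CPM. Of 8 markers of fibroblasts, pericytes and smooth muscle, 4 exceeded 1 CPM, led by the contractile actin Acta2 at 5661 CPM, while Lum had no count.

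Igf2bp3 (chr6:49085223-49214957, minus strand), which in the adult is normally confined to few tissues, was at or near the floor in 4 of 5 female lines and was well detected in 4 of 5 male lines. In lot 6 its level was 0.642, 0.288 and 1.14 CPM in the female libraries, against 14.6, 12.2 and 13.6 CPM in the male ones. In lot 7 it was 0.586, 0.525, 0.156 and 0.672 CPM in the female libraries, against 8.32, 12.0, 9.69 and 11.5 CPM in the male ones. In both lots every male library stood above every female library. In lot 8 it was 0, 0.218, 0.182 and 0.352 CPM in the female libraries, against 16.5, 11.2, 10.5 and 9.09 CPM in the male ones. In lot 11 it was 1.34, 1.51, 0.522 and 0.466 CPM in the female libraries, against 14.5, 19.8, 9.85 and 12.3 CPM in the male ones. The groups did not overlap in these lots either, and lot 12 had the opposite order. There the level was 12.9, 7.58 and 7.58 CPM in the female libraries, against 1.39, 0 and 2.68 CPM in the male ones, again with no overlap. In bulk libraries, fewer cells that express a gene and less RNA per cell cannot be told apart.

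Counts behind the low Igf2bp3 levels were few. Of the 15 female libraries outside lot 12, 10 had 3 or fewer counts and the highest had 11, whereas the 15 male libraries of the same lots had at least 51. Summed over a line, lot 8 had 4 counts in the female line and 242 in the male line, a level 58.1 times lower in the female line with a 95% Clopper-Pearson interval of 22.4 to 215 that covers counting error only. The same ratio was 19.5 in lot 6 (11.6 to 35.4), 22.0 in lot 7 (12.1 to 44.6) and 14.5 in lot 11 (9.63 to 22.7). In lot 12 the female line, with 182 counts, stood 7.07 times above the male line with 24 (4.60 to 11.3). The fitted log2 fold changes, female over male, were -4.25 ± 0.58 (SE), -4.38 ± 0.54, -5.75 ± 0.63 and -3.84 ± 0.49 in lots 6, 7, 8 and 11, and 2.78 ± 0.54 in lot 12. The 5 high lines averaged 9.34 to 14.1 CPM and the 5 low lines 0.188 to 1.36 CPM, with no line between.

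The last part of Igf2bp3 lies opposite Malsu1, a mitochondrial ribosome assembly factor on the plus strand. Of the 2119 bases of its 3' UTR, 1529 (72.2%) fall within Malsu1 exons, the last 500 bases among them. The strand setting of the authors' counting is not given in the sources used here, so reads of both genes in that stretch may not have been separable. Malsu1 itself varied little, with a lowest mean of 78.4 ± 6.47 CPM in lot 12 female cells (SD, n = 3) and a highest of 109 ± 15.3 CPM in lot 8 male cells (SD, n = 4), 1.39 times the lowest. Its log2 fold changes, female over male, ran from -0.37 ± 0.13 in lot 6 to -0.04 ± 0.11 in lot 11, and had the same sign in lot 12, where that of Igf2bp3 was opposite.

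**Figure D1:**
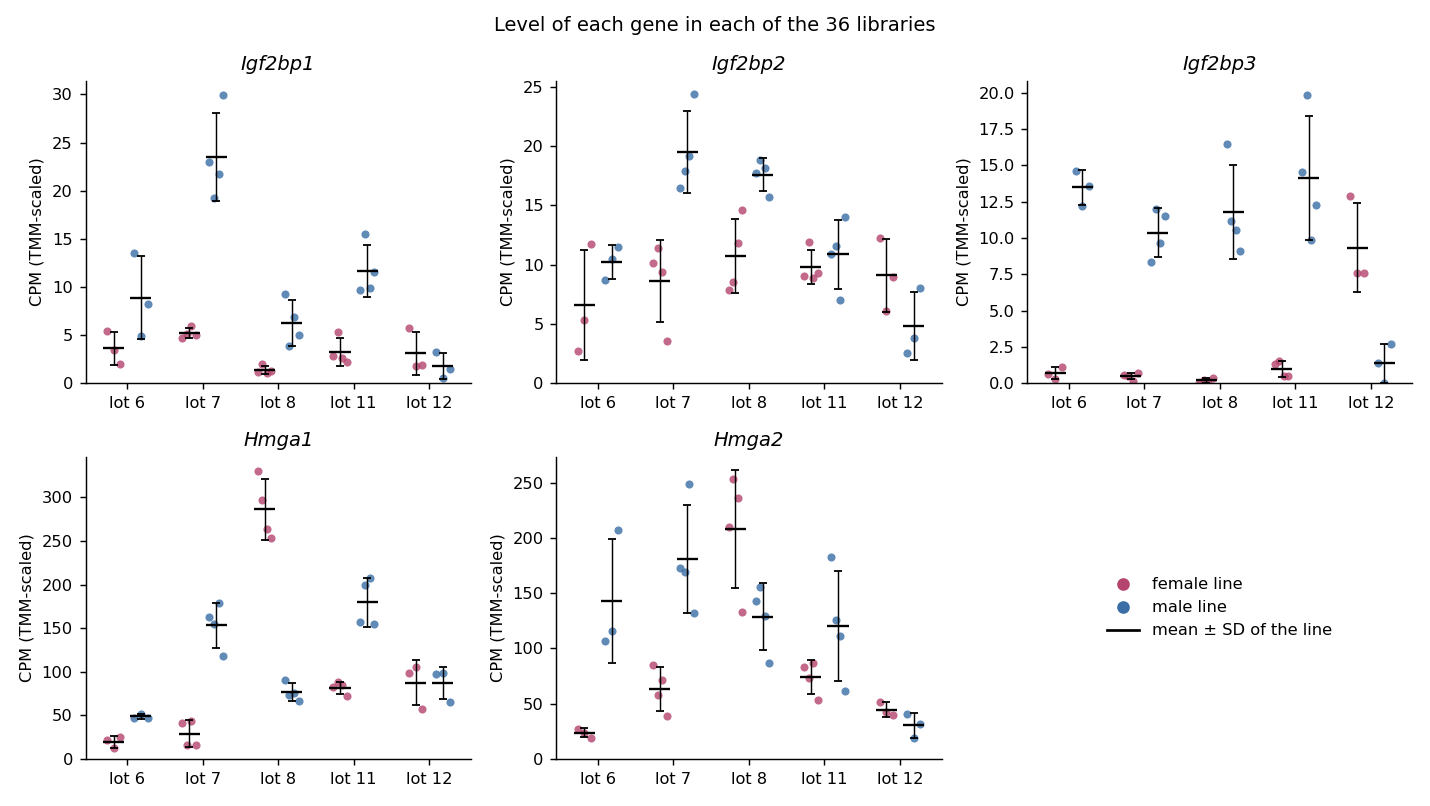
CPM (TMM-scaled) of Igf2bp1, Igf2bp2, Igf2bp3, Hmga1 and Hmga2 in each of the 36 libraries, female line left of the male line of the same lot; points are libraries and black bars the mean ± SD of the line. The panel of Igf2bp3 shows 5 lines at 9.34 to 14.1 CPM and 5 at 0.188 to 1.36 CPM, with the order of the sexes in lot 12 opposite to that in the other lots.

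Igf2bp1 (chr11:95957163-96005940, minus strand), the founding member of the family, known to bind Actb and Myc mRNA, was lower in the female line in lots 6, 7, 8 and 11. In lot 7 it was 4.69, 5.08, 5.94 and 5.04 CPM in the female libraries, against 23.0, 19.2, 21.8 and 29.9 CPM in the male ones. In lot 8 it was 1.19, 1.96, 1.09 and 1.23 CPM in the female libraries, against 9.28, 3.85, 6.89 and 4.99 CPM in the male ones. In lot 11 it was 2.84, 5.34, 2.61 and 2.17 CPM in the female libraries, against 9.65, 15.5, 9.85 and 11.5 CPM in the male ones. The groups did not overlap in these 3 lots. Lot 6 overlapped, with 5.39, 3.46 and 2.00 CPM in the female libraries, against 13.5, 4.96 and 8.22 CPM in the male ones. Lot 12 overlapped too, with 5.69, 1.78 and 1.85 CPM in the female libraries, against 3.25, 0.57 and 1.49 CPM in the male ones. The log2 fold changes were -1.28 ± 0.45, -2.17 ± 0.38, -2.18 ± 0.45 and -1.83 ± 0.39 in lots 6, 7, 8 and 11, and 0.90 ± 0.51 in lot 12. Over all lines the highest mean was 23.5 ± 4.58 CPM, in lot 7 male cells, and the lowest 1.37 ± 0.40 CPM, in lot 8 female cells (SD, n = 4 each), 17.1 times lower. The lot 7 male line stood apart from the next, and the other 8 pairs of neighbours in the order overlapped between their libraries.

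Igf2bp2 (chr16:22059009-22163299, minus strand), the family member that adult tissues keep, varied least of the 3. In lot 7 it was 10.2, 11.4, 9.37 and 3.53 CPM in the female libraries, against 16.5, 17.9, 19.2 and 24.4 CPM in the male ones. In lot 8 it was 7.87, 8.51, 11.8 and 14.6 CPM in the female libraries, against 17.7, 18.9, 18.2 and 15.7 CPM in the male ones. Male libraries were above female ones without overlap in these 2 lots. In lots 6, 11 and 12 the libraries overlapped, with line means of 6.58 ± 4.64, 9.78 ± 1.43 and 9.10 ± 3.09 CPM in the female lines, against 10.2 ± 1.42, 10.9 ± 2.90 and 4.82 ± 2.87 CPM in the male lines (SD, n = 3, 4 and 3). The log2 fold changes in lots 6, 7, 8, 11 and 12 were -0.64 ± 0.39, -1.18 ± 0.33, -0.71 ± 0.33, -0.15 ± 0.34 and 0.89 ± 0.41. The highest line, lot 7 male, averaged 4.05 times the lowest, lot 12 male. Of the 9 pairs of neighbours in the order, the lot 8 male line and the lot 11 male line were the pair that did not overlap.

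Hmga2 (chr10:120361275-120476469, minus strand), the fetal HMGA gene, was lower in the female line in lots 6, 7 and 11 and higher in lots 8 and 12. In lot 6 it was 27.5, 23.6 and 19.3 CPM in the female libraries, against 106, 115 and 207 CPM in the male ones. In lot 7 it was 84.6, 57.6, 71.7 and 38.8 CPM in the female libraries, against 173, 169, 249 and 132 CPM in the male ones. The groups did not overlap in these lots. In lot 11 it was 83.1, 73.1, 86.6 and 52.9 CPM in the female libraries, against 182, 125, 111 and 61.4 CPM in the male ones. In lot 8 it was 210, 253, 236 and 132 CPM in the female libraries, against 143, 155, 129 and 86.4 CPM in the male ones. Lots 8, 11 and 12 overlapped. The overlap came from female replicate 4 in lot 8 and from male replicate 4 in lot 11. Replicate 4 was the lowest library for Hmga2 in each line of lots 7, 8 and 11, and the cause was not tested. Lot 12 was low in both sexes, with 51.9, 42.2 and 39.8 CPM in the female libraries, against 40.8, 19 and 31.1 CPM in the male ones. The log2 fold changes in lots 6, 7, 8, 11 and 12 were -2.61 ± 0.33, -1.52 ± 0.27, 0.69 ± 0.26, -0.70 ± 0.26 and 0.58 ± 0.32. Lot 8 female cells had the highest mean, 208 ± 53.4 CPM (SD, n = 4), and lot 6 female cells the lowest, 23.5 ± 4.09 CPM (SD, n = 3), 8.86 times apart. All 9 pairs of neighbours in this order overlapped, the lines of lot 11 only through male replicate 4. The genes 1700006J14Rik and 9230105E05Rik are annotated on the opposite strand of Hmga2, so reads in the overlaps may not have been separable.

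Hmga1 (chr17:27556497-27563674, plus strand), the HMGA gene that dividing and transformed cells of many tissues express, differed in opposite directions between the lines of lots 7 and 8. In lot 7 it was 41.2, 15.6, 44.0 and 15.5 CPM in the female libraries, against 163, 154, 179 and 118 CPM in the male ones. In lot 8 it was 331, 297, 264 and 254 CPM in the female libraries, against 90.7, 73.2, 75.7 and 66.8 CPM in the male ones. Neither pair of lines overlapped, and the lot 8 female line was 3.74 times its male counterpart whereas the lot 7 male line was 5.28 times its female counterpart. In lot 6 it was 21.8, 12.3 and 24.6 CPM in the female libraries, against 47.2, 52.0 and 47.1 CPM in the male ones. In lot 11 it was 82.1, 88.0, 84.7 and 71.8 CPM in the female libraries, against 157, 200, 208 and 154 CPM in the male ones. Lots 6 and 11 had no overlap either, with the female line lower, while lot 12 had equal means of 87.2 ± 25.8 CPM for the female and 87.1 ± 18.5 CPM for the male line (SD, n = 3 each). The log2 fold changes in lots 6, 7, 8, 11 and 12 were -1.32 ± 0.28, -2.40 ± 0.24, 1.90 ± 0.23, -1.14 ± 0.22 and 0.01 ± 0.26.

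Hmga1 has a near-identical copy, Hmga1b (chr11:120762794-120764419, plus strand), whose transcript matched that of Hmga1 at 99.81% of 1602 aligned bases, with 3 mismatches. Reads of the pair can therefore be split or dropped by the counting, and each row alone is uncertain. The share of the pair's counts given to Hmga1 fell into a low and a high range. It was 14.9 ± 3.77% in the lot 6 female line, against 13.6 ± 1.69% in the lot 6 male line (SD, n = 3 each). It was 23.0 ± 10.6%, 52.9 ± 1.96% and 26.5 ± 0.98% in the female lines of lots 7, 8 and 11, against 47.6 ± 1.79%, 21.2 ± 2.51% and 51.5 ± 2.60% in the male lines (SD, n = 4 each). It was 48.1 ± 2.75% in the lot 12 female line, against 52.9 ± 1.75% in the lot 12 male line (SD, n = 3 each). Every pair of lots 7, 8 and 11 thus had 1 line in each range, lot 6 had both lines in the low range and lot 12 both in the high one. Within the lot 7 female line the share ran from 12.5 to 33.6%.

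The sum of both rows does not depend on that split, but it lacks any reads that the counting dropped from both. It was 129 ± 12.8, 123 ± 15.8, 540 ± 47.2, 309 ± 24.4 and 179 ± 44.9 CPM for the female lines of lots 6, 7, 8, 11 and 12, against 362 ± 31.7, 322 ± 48.0, 364 ± 55.2, 349 ± 54.0 and 165 ± 35.5 CPM in the male lines (SD, n = 3, 4, 4, 4 and 3). The sum was lower in the female line without overlap in lots 6 and 7, higher without overlap in lot 8, and overlapped in lots 11 and 12. In lot 11 the female line held 2.20 times less Hmga1 alone than the male line, and its sum was 1.13 times lower, with overlap. Hmga1b alone was higher there in the female line without overlap, at 227 ± 18.3 CPM against 170 ± 29.1 CPM (SD, n = 4 each). It was lower in the female line without overlap in lots 6 and 7, and overlapped in lots 8 and 12. In lot 8 the 3.74-fold difference of Hmga1 came to 1.48-fold for the sum. The highest line exceeded the lowest 14.7 times for Hmga1 and 4.41 times for the sum.

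**Figure D2:**
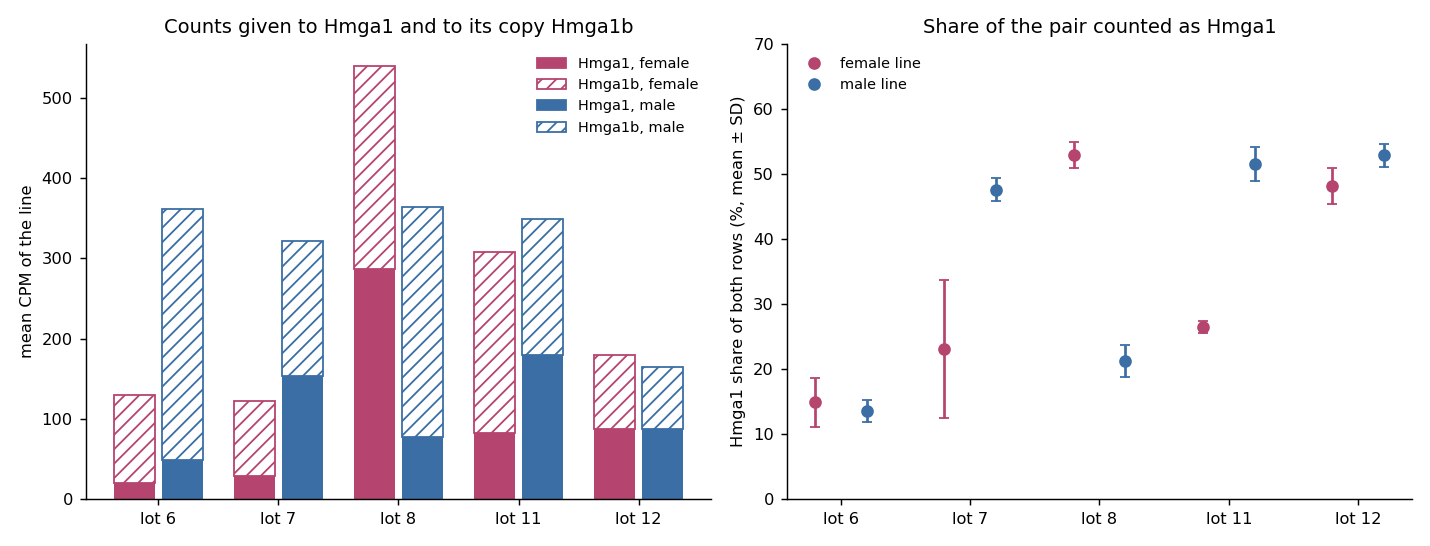
Left, mean CPM of each line for Hmga1 (filled) with its near-identical copy Hmga1b stacked on it (hatched); right, the percentage of the pair's counts given to Hmga1, as mean ± SD over the libraries of a line, female left of male in each lot. The share lies at 13.6 to 26.5% in 5 lines and at 47.6 to 52.9% in the other 5, and the sum spans 123 to 540 CPM.

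Lin28b (chr10:45376620-45486395, minus strand), the let-7 antagonist, was not detected in any female library and had 4 counts in 1 male library, replicate 4 of lot 7 (0.554 CPM). A count of 0 allows a level of up to 0.397 to 0.688 CPM per library. Its paralog Lin28a, which acts in embryonic stem cells, had 2 counts in all, in lot 8 male replicate 2. Both LIN28 genes were thus at 0 in nearly all libraries, those in which the known let-7 targets Hmga2 and Igf2bp3 were well counted included.

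The 5 detected genes passed the filter on low counts in the fit of all 36 libraries, and Lin28b did not. In that fit, edgeR's quasi-likelihood test called 27.6% of 12173 genes between the lines of lot 6, at a Benjamini-Hochberg adjusted p under 0.05, 14% in the lower direction, and 4 of the 5 detected genes, all lower in the female line. The share was 10.8% in lot 7, 5.42% in the lower direction, where all 5 were called lower in the female line. It was 11.4% in lot 8, 4.99% in the lower and 6.41% in the higher direction, with Igf2bp1 and Igf2bp3 lower and Hmga1 higher. It was 4.33% in lot 11, 2.81% in the lower direction, with Igf2bp1, Igf2bp3 and Hmga1 lower. It was 3.8% in lot 12, 1.74% in the higher direction, with Igf2bp3 higher. Since the genes were chosen for these levels, nothing is read from the counts. The median log2 fold change of the 5 genes was -1.32, -2.17, -0.71, -1.14 and 0.89 in lots 6, 7, 8, 11 and 12, beside medians over all tested genes of 0.06, 0.01, 0.00, -0.01 and 0.01. The call of Igf2bp1 in lot 6 was lost with no scaling of libraries and without female replicate 2, female replicate 3 or male replicate 1, and that of Igf2bp2 in lot 7 without replicate 4 of either line. The call of Igf2bp3 in lot 12 was lost when the libraries of that lot were fitted alone, with the log2 fold change at 2.77 ± 0.80 (SE), against 2.78 ± 0.54 in the fit of all libraries.

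**Figure D3:**
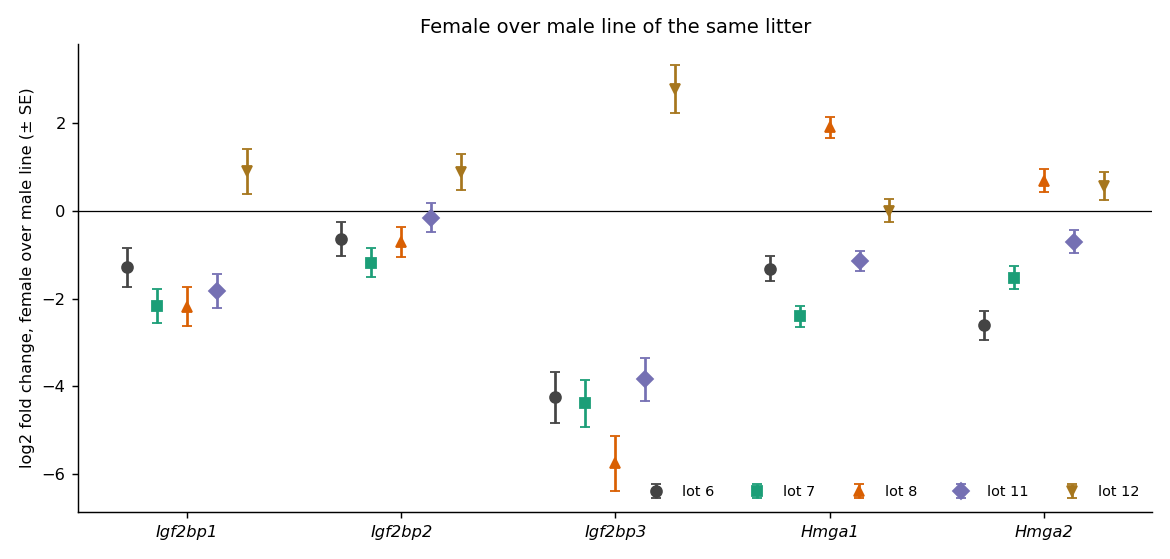
Log2 fold change of the female over the male line of the same lot, with its standard error, for the 5 detected genes; symbols mark the lots and the line at 0 marks equal levels. Igf2bp3 lies between -5.75 and -3.84 in lots 6, 7, 8 and 11 and at 2.78 in lot 12, whereas Hmga1 lies at -2.40 in lot 7 and 1.90 in lot 8.

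The comparison of the sexes across lots used the 5 female and the 5 male lines as replicates, with the lot as a term. Igf2bp1 averaged 3.30 ± 1.36 CPM in female lines and 10.4 ± 8.16 CPM in male lines (SD, n = 5 lines each). Igf2bp3 averaged 2.33 ± 3.93 CPM in female lines and 10.2 ± 5.17 CPM in male lines. Both were lower in the female line in 4 of 5 lots, lot 12 being the exception. Igf2bp2 averaged 8.95 ± 1.54 CPM in female lines and 12.6 ± 5.96 CPM in male lines, while Hmga1 averaged 101 ± 108 CPM in female lines and 109 ± 55.1 CPM in male lines. Hmga2 averaged 82.6 ± 72.6 CPM in female lines and 121 ± 55.6 CPM in male lines. In the edgeR quasi-likelihood fit of the 10 line sums, the log2 fold changes were -1.36 ± 0.47 for Igf2bp1, -0.39 ± 0.28 for Igf2bp2, -3.54 ± 1.22 for Igf2bp3, -0.63 ± 0.57 for Hmga1 and -0.69 ± 0.50 for Hmga2. Since these genes were chosen for their levels in these lines, the fold changes are given as a description. Of 12010 genes tested, 0 passed by edgeR, and 841 (7%) had an unadjusted p under 0.05. DESeq2 on the same sums called 56 genes. A test of whether the difference between the sexes varied between lots, in the fit of 36 libraries, called 3643 genes (29.9%). The 5 genes were among them, from which nothing is read for the same reason.

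The levels of Igf2bp2 and Hmga2 ran together over the 10 lines, with Pearson's r = 0.82 and Spearman's rho = 0.89. Both used log2 CPM of the counts summed per line. Without the 2 lines farthest from the median of Igf2bp2, lot 12 male and lot 7 male, r was 0.74. Hmga2 ran with Hmga1b at r = 0.79 and rho = 0.77 (r = 0.72 without the 2 farthest lines), whereas Igf2bp1 and Hmga1 had r = 0.00 and rho = -0.12. The lines share litters in pairs, so these are descriptions of 10 lines with no p-value, out of 10 pairs of the 5 genes and 5 pairs with Hmga1b. No coefficient is given for Igf2bp3, whose lines fell into separate ranges. Those of Hmga1 and Hmga1b use single rows, which depend on how reads were split between the copies, and none was computed for their sum.

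Igf2bp2 and Hmga2 also ran against the summed markers of fibroblasts, pericytes and smooth muscle, of which Acta2 made up most. That sum was 14871, 8066, 2353, 4940 and 8152 CPM for the female lines of lots 6, 7, 8, 11 and 12, against 5548, 1379, 2399, 4536 and 11711 CPM in the male lines. In all 5 lots the line with the higher sum had the lower Hmga2. The sums of lot 8 were nearly equal, at 2353 and 2399 CPM, and their spread over libraries was not computed. Over the 10 lines Hmga2 had r = -0.90 and rho = -0.92 with the sum, and r = -0.88 without the 2 farthest lines, lot 6 female and lot 7 male. Igf2bp2 had r = -0.90 and rho = -0.93, and r = -0.84 without them. Hmga1, by its row alone, had r = -0.68 and rho = -0.60, and r = -0.51 without them. Igf2bp1 had r = -0.45 and rho = -0.38, and r = -0.08 without them. These coefficients followed Acta2, which alone had r = -0.92 with Hmga2 and -0.89 with Igf2bp2. Without Acta2 the sum of the other markers had r = 0.15 with Hmga2 and -0.24 with Igf2bp2. Of those markers, the collagen genes Col1a2 and Col1a1 averaged 203 and 99.0 CPM and Pdgfrb, a receptor of pericytes, 23.6 CPM. Lum had no count and Des had 5 counts in all 36 libraries. Pdgfrb alone also ran against both genes, with r = -0.70 and rho = -0.84 for Hmga2. For Igf2bp2 it had r = -0.49 and rho = -0.75. Without the lot 12 male and lot 8 female lines, r was -0.49 and -0.45. Col1a1 had r = -0.21 with Hmga2 and -0.18 with Igf2bp2, and Col1a2 had 0.22 and -0.16. Col1a2 ran the other way from Acta2 in lot 6, at 23.8 CPM in the female and 480 CPM in the male line. The astrocyte marker sum, of which Vim made up most, had r = 0.56 with Hmga2 and 0.50 with Igf2bp2. Without the 2 lines farthest on that sum, lot 7 female and lot 8 male, r was 0.59 and 0.32. The part of cell state or cell mixture in the levels of these genes was not tested.

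**Figure D4:**
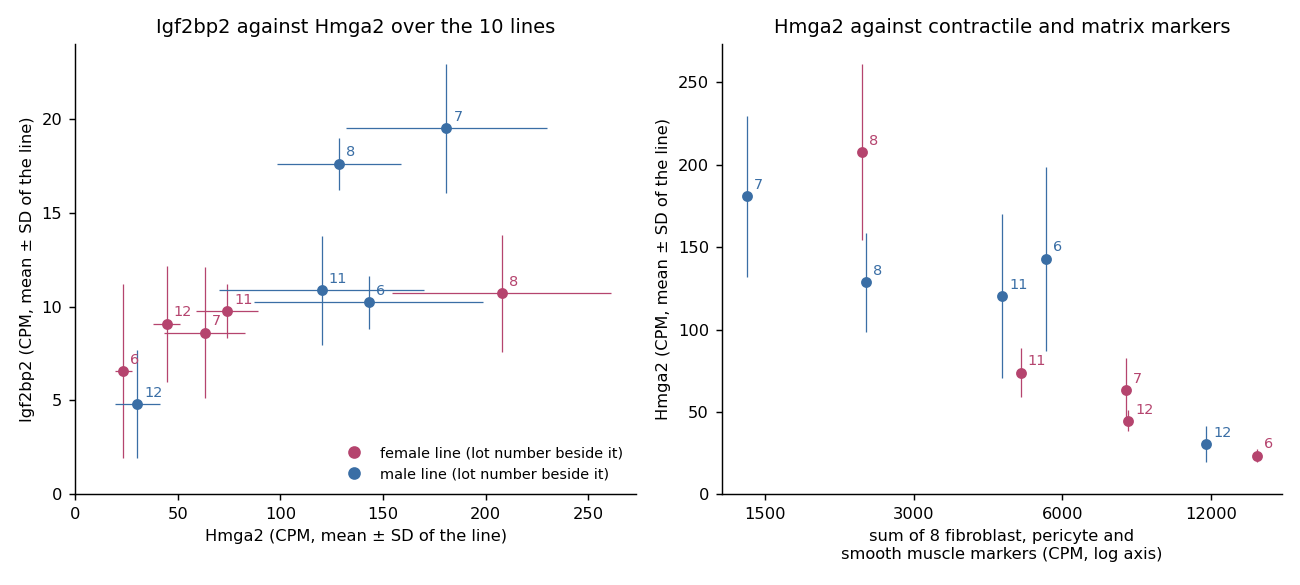
Left, Igf2bp2 against Hmga2 in CPM, mean ± SD of each of the 10 lines; right, Hmga2 against the summed CPM of 8 markers of fibroblasts, pericytes and smooth muscle on a log axis, with lot numbers beside the points. Hmga2 is highest in the lot 8 female line and lowest in the lot 6 female line, the line with the highest marker sum at 14871 CPM.

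Among 6376 protein-coding genes whose mean log2 CPM reached 3, those most like each gene over the 10 lines were taken by Pearson's r on log2 CPM, except for Igf2bp3, whose lines fell into separate ranges. For Igf2bp1 these were Rad52, a recombination protein (r = 0.94), Hs2st1, a heparan sulfate sulfotransferase (0.88), and Dhx37, a ribosome biogenesis helicase (0.87). For Igf2bp2 they were Zbtb17, the Myc partner also called Miz1 (0.95), Pola2, a subunit of DNA polymerase alpha (0.94), and Cdc42ep4 (0.92). For Hmga1 they were Ppip5k2, an inositol pyrophosphate kinase (0.96), Smarcad1, a chromatin remodeller (0.90), and Pfdn6, a prefoldin subunit on the chromosome of Hmga1 (0.90). These used the row of Hmga1 alone, which depends on the split of reads with Hmga1b, and likeness to the sum was not computed. For Hmga2 they were Gnl2, a nucleolar GTPase (0.96), Tpm3, a tropomyosin (0.94), and Ewsr1, an RNA-binding protein (0.94). Their own levels varied less than those of the genes they resembled, by 0.60 to 1.28 on the log2 scale between the highest and the lowest line. With so many genes and 10 lines, high coefficients arise by selection, and they are given as a description.

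The chromosome around each gene was examined because whole regions differed between some lines. Around Hmga2 in lot 6, the median log2 fold change of the 32 tested genes within 5 Mb was -0.96, 16 of them called lower and 2 higher in the female line, and the 567 genes of chromosome 10 had a median of -0.51, beside 0.06 over all genes. Hmga2 itself was at -2.61 in that lot. In lots 7, 8, 11 and 12 the chromosome 10 median was -0.16, -0.09, -0.13 and -0.31, and the Hmga2 window had -0.16, 0.02, -0.29 and -0.26. Around Igf2bp1 in lot 6, the 112 genes within 5 Mb had a median of -0.29, with 31 called lower and 5 higher, and chromosome 11 had -0.25. For Igf2bp2, Igf2bp3 and Hmga1 the window medians stayed between -0.13 and 0.21 in all lots. The part of these regional shifts in the levels of Hmga2 and Igf2bp1 was not tested.

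**Figure D5:**
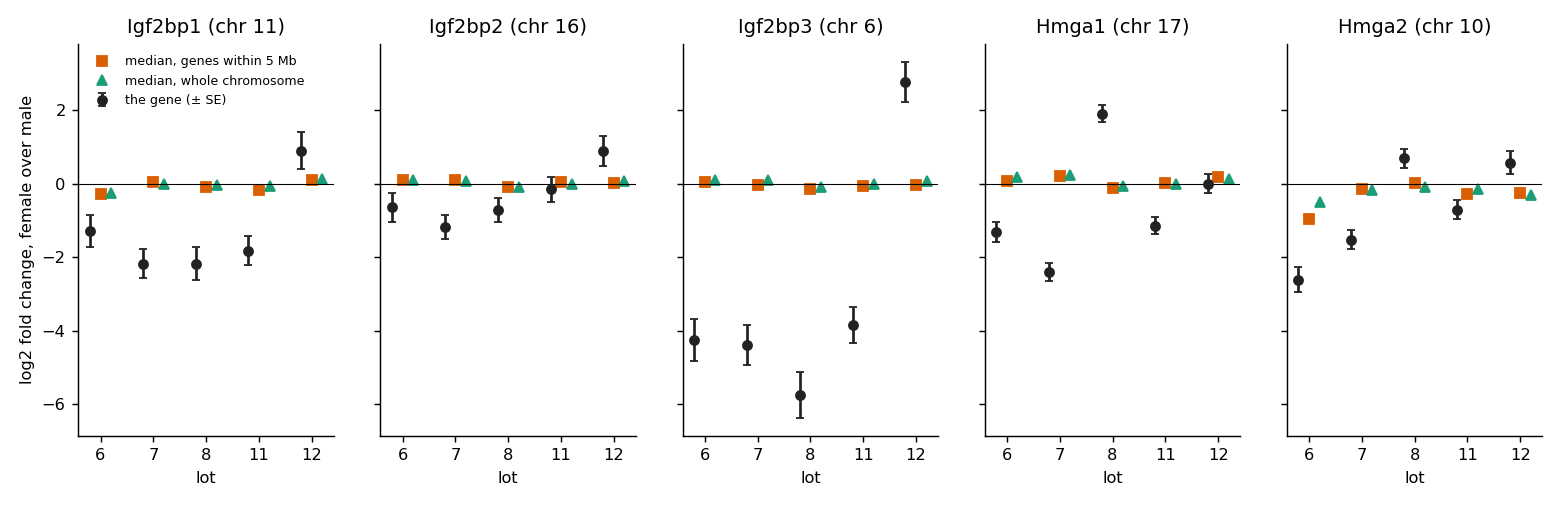
Log2 fold change of the female over the male line in lots 6, 7, 8, 11 and 12 for each of the 5 detected genes (circles, ± SE), with the median of the genes within 5 Mb (squares) and of its chromosome (triangles). The medians lie farthest from 0 around Hmga2 in lot 6, with the window at -0.96 and the chromosome at -0.51. Around Igf2bp1 in lot 6 they are at -0.29 and -0.25, and the chromosome of Hmga2 is at -0.31 in lot 12.

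Genes of the let-7 pathway were examined next, in lists chosen with earlier results of these data known. By edgeR 0 of 115 list genes were called across lots and 9 had an unadjusted p under 0.05. Over all 12010 genes tested these were 0 and 841 (7%), and the same 7% stands beside the count of each list below. DESeq2, which called 56 of 12010 genes, called Igf1, Cdk6 and Mest. Limma voom, in which lines entered as a random block, called 412 of 10166 genes. Among them were these 3 and Cd44, Cdc34, Snai2, Dusp1, Col1a2 and Cd24a. How many of all genes were higher or lower in female lines was not counted. Of 17 tested genes of let-7 maturation, 0 were called across lots by edgeR and 0 had an unadjusted p under 0.05, and the list's median log2 fold change was -0.04, beside 0.01 over all genes. Dgcr8, the partner of the Drosha nuclease, was highest in the lot 12 male line, at 6.97 CPM, and lowest in the lot 6 female line, at 1.93 CPM. Prkra, a Dicer cofactor, was called higher in the lot 6 female line (log2 fold change 0.50 ± 0.19). Dis3l2, the exonuclease that degrades let-7 precursors tagged after LIN28 binding, had 2.51 ± 0.47 CPM in female lines and 2.93 ± 0.51 CPM in male lines. Of the let-7 host transcripts 3 were tested and 0 were called across lots, 0 of them at an unadjusted p under 0.05. Mir99ahg, which hosts let-7c, was highest at 6.25 CPM, in the lot 11 male line, and lowest at 0.289 CPM, in the lot 6 male line, and was called lower in the lot 11 female line (-3.48). Huwe1, which hosts let-7f and miR-98, spanned 10.2 to 19.1 CPM and Wdr82, which hosts let-7g, 8.84 to 12.8 CPM over the lines.

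Of 32 tested let-7 targets outside the 6 genes, 15 had a higher and 17 a lower level in female lines, with a median log2 fold change of -0.02, 0 calls by edgeR across lots and 5 at an unadjusted p under 0.05. Cdk6, a G1 kinase also listed among the transcripts bound by IGF2BP proteins and the genes linked to HMGA proteins, was lower in the female line in 5 of 5 lots. It averaged 20.4 ± 7.32 CPM in female lines and 43.3 ± 13.4 CPM in male lines (SD, n = 5 lines each), with a log2 fold change of -1.12 ± 0.27, and it was called in lots 6 and 11 (-1.89 and -1.75). The widest ranges belonged to Gatm, Col1a2 and Col3a1. Col1a2, a fibrillar collagen, was called lower in the female line in lots 6 (-4.34) and 12 (-3.74).

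Of 18 tested transcripts known to be bound by IGF2BP proteins, 6 had a higher and 12 a lower level in female lines, with 0 calls by edgeR across lots and 2 at an unadjusted p under 0.05. Cd44, the hyaluronan receptor, averaged 188 ± 23.3 CPM in female lines and 148 ± 23.5 CPM in male lines, with the female line higher in 5 of 5 lots (0.35 ± 0.12). Ptgs2 was called in lots 6, 7 and 12 in differing directions (-0.85, 0.73 and -1.22), and so was Ccng1 in lots 6 and 7 (-1.54 and 0.99). Of 12 tested genes of IGF signalling, 7 were higher and 5 lower in female lines, with 0 calls by edgeR and 1 at an unadjusted p under 0.05. That gene was Igf1, the ligand of the IGF1 receptor, on chromosome 10 like Hmga2, with 23.1 ± 21.5 CPM in female lines and 3.53 ± 3.06 CPM in male lines. Its log2 fold change was 2.36 ± 0.61, with the female line higher in 5 of 5 lots, and it was called in lots 6, 7 and 12 (4.43, 3.09 and 2.56). Irs1, a receptor substrate, was called higher in the lot 6 female line (4.41), and Igf2r, which clears IGF2, averaged 7.75 ± 2.41 CPM in female lines and 5.23 ± 1.85 CPM in male lines.

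IGF2BP proteins are m6A readers, and of 16 tested genes that write, erase or read m6A, 3 were higher and 13 lower in female lines, with a median of -0.14, 0 calls by edgeR and 0 at an unadjusted p under 0.05. Wtap, a subunit of the writer complex, was highest at 42.8 CPM, in the lot 11 male line, and lowest at 8.22 CPM, in the lot 8 female line, and was called in lot 11 (-2.25). Of 10 tested high mobility group genes outside the HMGA family, 2 were higher and 8 lower, with a median of -0.13 and again 0 calls by edgeR and 0 at an unadjusted p under 0.05. Hmgb1 and Hmgb2, abundant proteins that bend DNA, were both called lower in the female line in lots 6 (-0.82 and -0.53) and 7 (-0.70 and -0.77). Of 13 tested genes linked to HMGA proteins, 7 were higher and 6 lower, with 0 calls by edgeR and 2 at an unadjusted p under 0.05, Cdk6 and Sox2. Snai2, a mesenchymal transcription factor, was called higher in the female line in lots 6 (3.35) and 7 (2.53), and its relative Snai1, known as a target of HMGA2, lower in lot 6 (-3.29).

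Of 9 tested other oncofetal and embryonic genes, 4 were higher and 5 lower in female lines, with 0 calls by edgeR across lots and 1 at an unadjusted p under 0.05. That gene was Mest, an imprinted gene of the embryonic mesoderm, with 20.9 ± 15.3 CPM in female lines and 1.37 ± 1.23 CPM in male lines and a log2 fold change of 3.69 ± 0.68. The female line was higher in 5 of 5 lots, and Mest was called in lots 6, 8, 11 and 12. Grb10, an imprinted inhibitor of insulin receptor signalling, was called in both directions, higher in the female line in lots 6 (2.84) and 8 (3.49) and lower in lots 7 (-3.12) and 11 (-4.29). Cd24a, a surface protein of neural progenitors, was called in all 5 lots, with log2 fold changes of -2.44, -0.59, -0.51 and -1.33 in lots 6, 7, 11 and 12 and 0.75 in lot 8. The order of Mest between the sexes was opposite to that of Igf2bp1 and Igf2bp3 in lots 6, 7, 8 and 11 and the same in lot 12.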

How the data were processed

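BRB-seq libraries of polyadenylated RNA were grouped by the lot, sex and replicate number in their labels. Per the labels, the authors deposited raw counts per Ensembl gene, and whole numbers were found throughout. Tools named in the submitters' processing notes are STAR 2.7.6a, cutadapt 2.10 and Subread 2.0.2, with GRCm38 as the genome. Whether molecular identifiers were collapsed and how strand was set are not given in the sources used here. Of 46078 genes, 45229 matched GENCODE M21 by identifier. For the 48 pairs of libraries of a line, chi-square over its degrees of freedom was 5.47 to 22.3, so none was counted as a duplicate.

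Counts were tested with edgeR 4.0.16 (quasi-likelihood, TMM scaling, its expression filter) in R 4.3.3. Line sums were fitted with lot and sex, and the 36 libraries with 1 coefficient per line. Benjamini-Hochberg adjustment ran over all genes tested, with a threshold of 0.05. The fits were also run on counts simulated without a litter effect. The outcome is not given here, and nothing is read from it. Alternatives used limma 3.58.1 and DESeq2 1.42.0. Standard errors are the fold change over the root of its F. Python 3.11.15 with numpy 2.4.6, pandas 2.3.3 and matplotlib 3.10.9 made tables and plots.

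The 6 genes and all lists were chosen with earlier results of these data known. The rule for names took, from each list, the 3 tested genes with the widest range over lines and the 2 with the smallest p between the sexes, without predicted genes, and values are given for most of these. The 3 most like protein-coding genes were named per gene, except for Igf2bp3, whose lines fell into separate ranges. The correlations with marker sums were chosen after the levels were seen.

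Replicate numbers of the sexes were checked for pairing by the correlation of deviations from the line means. In lot 12 all 3 pairs of the same number exceeded 0.1 (0.283 to 0.449), so the libraries of that lot appear to be paired, which the labels leave unsaid. The fold changes and standard errors printed for lot 12 come from the fit without a replicate block. In the other lots not every pair exceeded 0.1. The values were -0.108 to 0.0599 in lot 6, 0.0347 to 0.198 in lot 7, 0.0174 to 0.258 in lot 8 and 0.0577 to 0.172 in lot 11. Pairs of different numbers reached at most 0.0263 in lot 7 and 0.0562 in lot 11, below every pair of the same number. A weaker pairing in these lots is therefore possible.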

Additional observations from a re-analysis of the deposited data

Results flagged for a closer look

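Single values far from the rest of their group were sought in 40 groups, lines of 4 libraries and the 5 lines of each sex. Of these, 5 groups had one. The rule is set to flag about 1 in 20 groups of normally distributed values. CPM need not be so distributed and the genes were chosen for their levels, so nothing is read from this count. Igf2bp3 was at 9.34 CPM in the lot 12 female line, while the other female lines had 0.188 to 0.957 CPM. Hmga1 was at 286 CPM in the lot 8 female line, while the other female lines had 19.6 to 87.2 CPM. Hmga2 was at 208 CPM in the same line, while the other female lines had 23.5 to 73.9 CPM. Igf2bp1 was at 1.96 CPM in lot 8 female replicate 2, from 9 counts, while the other libraries of the line had 1.09 to 1.23 CPM. Igf2bp2 was at 11.9 CPM in lot 11 female replicate 2, while the other libraries of the line had 8.87 to 9.31 CPM.

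Differences between the sexes that turned round between lots without overlap were found for Igf2bp3 and Hmga1. The share of all genes that did so was not computed, so these are given as a description. Every female library was above every male library for Igf2bp3 in lot 12 (log2 fold change 2.78), and every one was below in lots 6, 7, 8 and 11. Every female library was above every male library for Hmga1 in lot 8 (1.90), and every one was below in lots 6, 7 and 11. The fit that tests such variation counted both genes among its 29.9% of called genes, but the genes were chosen for these levels, so no p is given. For the sum of Hmga1 and Hmga1b, lots 6 and 7 and lot 8 kept these opposite orders without overlap, and lot 11 overlapped.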

How the results depend on the processing

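Across lots, the sexes differed in 0 genes by edgeR with TMM scaling, 56 with DESeq2, 1269 with libraries as replicates, 412 with limma voom and lines as a random block, 1 with no lot term and 1 with replicate 4 of lots 7, 8 and 11 left out. Treating libraries as replicates counts the same line several times. The 5 genes kept their direction under all 14 alternatives, with Igf2bp1 at -1.85 to -1.12 and Igf2bp3 at -4.49 to -2.13. Among genes of the lists, DESeq2 called 3 and voom 9, where edgeR called 0; both tools were added for the lists after seeing the data.

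Within lot 7, 878 genes were called without replicate 4, against 1319. Replicate 4 of lots 7, 8 and 11 had 0.251 to 0.349% of counts from mitochondrial protein-coding genes, against 0.461 to 0.775% in other libraries. The part of this difference in the calls was not tested. Lot 12 had 463 calls, 106 from its libraries alone, and 228 to 731 when 1 library was left out (281 without female replicate 3, and 228, 265 and 731 without male replicates 1, 2 and 3). With a replicate block the calls in lots 6, 7, 8, 11 and 12 were 3553, 1684, 1708, 668 and 667. In lot 12, where the numbers appear to pair the libraries, no call of the 5 genes changed. Hmga2 was not called in lots 8 and 11. It was called under 5 of 16 alternatives in lot 8 and 2 of 16 in lot 11. The block was among them in both lots, where the pairing by replicate number was weaker than in lot 12. Igf2bp2 in lot 6 was called under 1 of 14. All 246 alternative values of the 16 called differences within lots kept their direction. Of 134 values of the 9 differences not called, 6 had the opposite sign, with Hmga1 in lot 12 at -0.17 to 0.23 and Igf2bp2 in lot 11 at -0.31 to 0.03. The number of genes whose sex difference varied between lots was 3643, and 2003 to 3860 when 1 lot was left out, lowest without lot 6. Without lot 12 Igf2bp1, Igf2bp2 and Igf2bp3 were no longer among them, nor was Igf2bp2 without lot 7; the cause was not tested. The log2 ratio of the highest to the lowest Hmga1 line was 3.87, and 2.06 for the sum with Hmga1b. At 3 counts or fewer per library, the depth does not show whether Igf2bp3 or Lin28b was silent or low.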
